A study of Homo sapiens with 115 samples.

Results

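The genes described here are 8 components of the pathways that recognise double-stranded RNA: DDX58, IFIH1, DHX58, TLR3, TRIM25, MAVS, TBK1 and IRF3. They were chosen by name, with earlier results of these data known, and all 8 had an entry among the 43386 entries of the count table. DDX58 encodes RIG-I and IFIH1 encodes MDA5, helicases that detect viral or misplaced cellular RNA in the cytoplasm. Both signal through the mitochondrial adaptor MAVS and the kinase TBK1 to the transcription factor IRF3, which switches on type I and type III interferon genes. Interferon in turn induces several of the sensors, so that their RNA is widely read as part of the interferon response.

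RNA was sequenced from single HCT116 cells, 43 p53-/- and 72 p53+/+, without molecular identifiers. HCT116 is a human colorectal carcinoma line. The cells came from 2 derived lines made by homologous recombination, and were picked by hand at 5 stages around irradiation with 8 Gy. The stages were [N], cells described by the study as unirradiated, at day 0, [P], radiation-tolerant cells before budding, at day 7, [B], budding cells at day 10, [S], the budded daughter cells at day 10, and [R], repopulated cells at day 30. Numbers of cells in the p53-/- and p53+/+ lines were 7 and 6 in [N], 11 and 6 in [P], 8 and 28 in [B], 9 and 21 in [S], and 8 and 11 in [R]. The labels give 8 Gy for the [N] cells too, which the study's text does not. Each line is 1 targeted line, so that the p53 genotype and other differences between the 2 lines cannot be told apart.

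Total counts per cell were between 4056329 and 100173192, with a median of 34238237. EPCAM, KRT8, KRT18 and KRT19, which mark epithelial cells, had counts in every cell, whereas CDH17 had counts in 11 cells and VIL1 in 1. Of 10 leukocyte markers, PTPRC had counts in 2 cells and CD3E and NKG7 in 0, but LYZ had counts in 24, ITGAM in 21, CSF1R in 16 and CD14 in 11. The summed level of that list was at most 31.8 CPM in any cell. Of the marker list for plasmacytoid dendritic cells, a cell type known for interferon production, CLEC4C had counts in 4 cells, LILRA4 in 2, IRF8 in 3, TCF4 in 6, GZMB in 24 and IL3RA in 29, with up to 65.6 CPM in a cell. The part of these genes in the results was not tested. Levels are given as CPM, the count of a gene scaled to the total count of the cell or sum. They are not divided by gene length, and so are compared between cells and not between genes. Cells of a line at a stage are not independent samples. Tests therefore used the sum of counts of each stage and line, 10 sums in all, with the 2 lines as the replicates of a stage. Nothing in the labels says that the cells of a line came from separate cultures, so that p-values measure only the spread between these sums.

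Short matches to the interferon response element are shown first, because members with such a match in the promoter can be set beside their levels. The windows searched, from 250 bases before to 50 bases after the start of a gene, were taken from RefSeq on GRCh38.p14 and were in the table used here for 6 of the 8 members. DHX58 and IRF3 were not among them. The motifs were GAAANNGAAA and GAAANGAAA, on both strands, and either was present in 4 of the 6 windows, compared with 6.4% of all 35116 windows. Capitals mark the match, read on the strand of the gene from 5′ to 3′, and the match is on the opposite strand where it reads TTTC.
DDX58, chr9:32526371-32526419, minus strand: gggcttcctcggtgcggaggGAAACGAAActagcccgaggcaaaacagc
IFIH1, chr2:162318808-162318863, minus strand: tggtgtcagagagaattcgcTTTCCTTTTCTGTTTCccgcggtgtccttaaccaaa
IFIH1, chr2:162318685-162318725, minus strand: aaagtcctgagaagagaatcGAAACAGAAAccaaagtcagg
TLR3, chr4:186069142-186069171, plus strand: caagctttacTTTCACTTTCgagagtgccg
TRIM25, chr17:56914034-56914062, minus strand: tcgagctaggTTTCGTTTCctcggcggcc
The DDX58 match lay at -203 to -195 relative to the start. In IFIH1 there were 3 matches, of which 2 overlapped and are shown as 1 run of 16 capitals. The TLR3 and TRIM25 matches spanned the start itself. MAVS and TBK1 had no match in this window. A match is a description of letters, and binding of a factor was not measured.

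DDX58 (GRCh38.p14 chromosome 9, 32455302 to 32526196) was detected in 109 cells, and its level differed widely among cells of the same stage. In p53-/- [N] cells the lowest, median and highest levels were 4.86, 10.5 and 46.4 CPM, and in p53+/+ [N] cells 0.95, 3.36 and 19.6 CPM. In p53-/- [P] cells they were 0.403, 37.6 and 571 CPM, and in p53+/+ [P] cells 2.75, 37.5 and 45.8 CPM. In [B] cells they were 1.03, 43.9 and 970 CPM in the p53-/- line and 0, 34.7 and 322 CPM in the p53+/+ line. The median was thus higher in both [P] and [B] than in [N] in both lines, with ranges that overlapped. In the p53+/+ line, 5 of 6 [P] cells and 17 of 28 [B] cells lay above all 6 [N] cells. In the p53-/- line, 4 of 11 [P] cells and 4 of 8 [B] cells lay above all 7 [N] cells. The medians in [S] were 33.0 CPM in p53-/- cells and 31.3 CPM in p53+/+ cells, and in [R] 16.7 and 12.3 CPM in the same lines.

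A few cells carried much of the DDX58 signal. In the p53-/- line, a single cell supplied 66.5% of the line's DDX58 counts in [P], and another supplied 78.4% of its counts in [B]. The summed level was 125 CPM in p53-/- [P] cells and 245 CPM in p53-/- [B] cells, both above the median over cells. In the p53+/+ line the sums were closer to the medians, at 30.1 CPM in [P] and 54.2 CPM in [B]. The sums in [N] were 20.6 CPM in the p53-/- line and 4.23 CPM in the p53+/+ line.

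**Figure D1:**
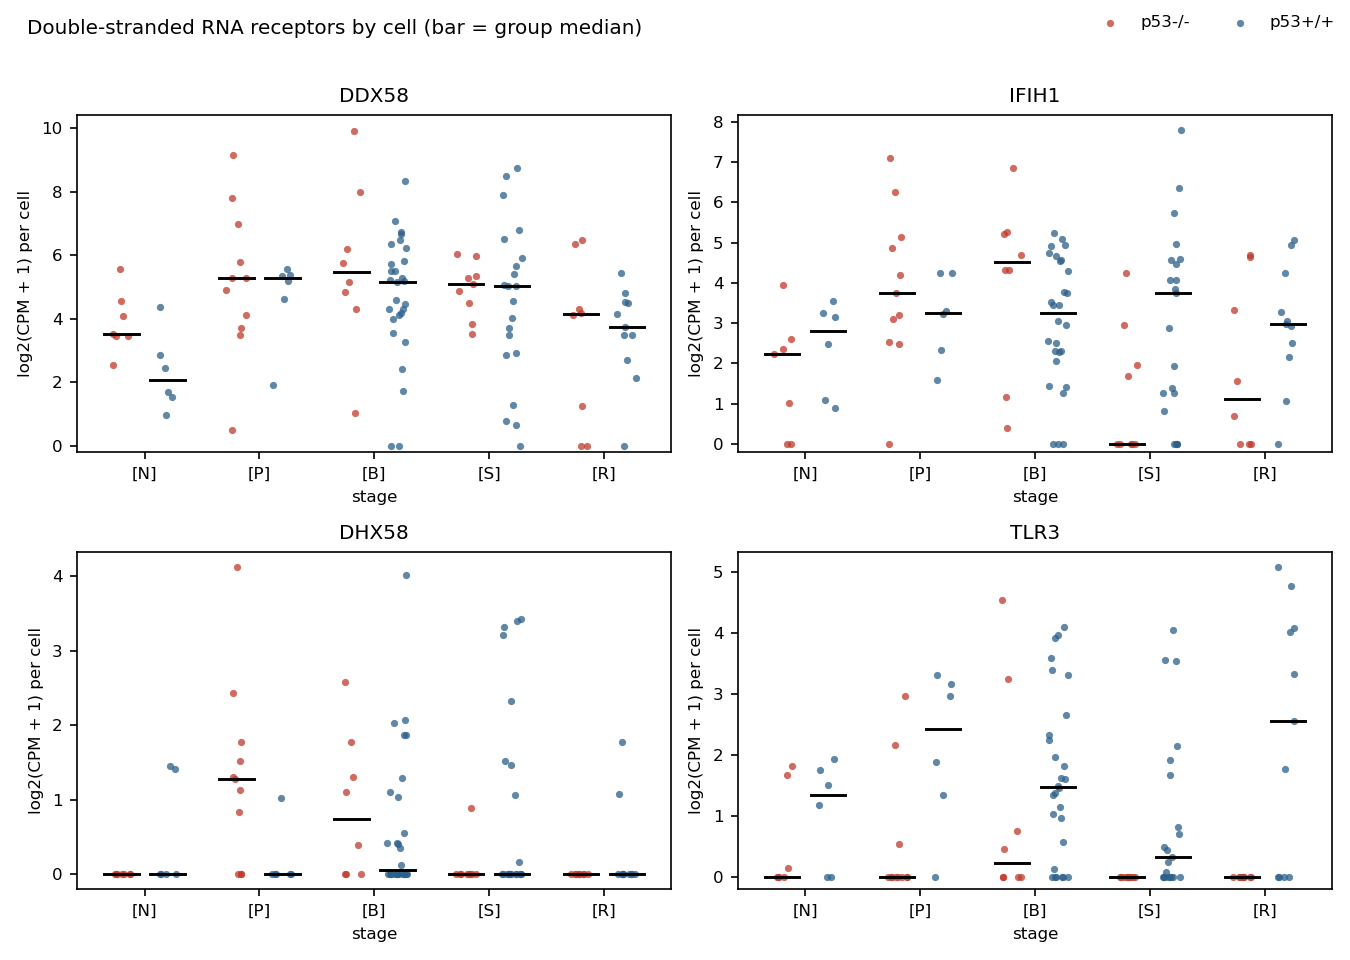
Level of the receptor genes DDX58, IFIH1, DHX58 and TLR3 in each cell, as log2(CPM + 1), by stage, with p53-/- cells in red left of p53+/+ cells in blue and a bar at each group's median. Medians of DDX58 were higher in [P] and [B] than in [N] in both lines, and TLR3 was at 0 in all p53-/- cells of [S] and [R].

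IFIH1, the MDA5 gene (chromosome 2, 162267074 to 162318684), was at 0 in some cells of most groups. In [N] the lowest, median and highest levels were 0, 3.70 and 14.5 CPM in p53-/- cells and 0.843, 6.22 and 10.8 CPM in p53+/+ cells. In [P] they were 0, 12.5 and 136 CPM in p53-/- cells and 2.00, 8.60 and 18.1 CPM in p53+/+ cells. In [B] they were 0.309, 22.03 and 114.8 CPM in p53-/- cells and 0, 8.64 and 36.7 CPM in p53+/+ cells. The medians of [P] and [B] were higher than those of [N] in both lines, and by more in the p53-/- line, a difference between lines that was not tested. In the p53-/- line, 6 of 8 [B] cells and 5 of 11 [P] cells lay above all [N] cells, and in the p53+/+ line 11 of 28 and 2 of 6 did. In [S] it had counts in 4 of 9 p53-/- cells (44.4%, exact 95% interval 13.7 to 78.8) and in 17 of 21 p53+/+ cells (80.95%, 58.1 to 94.5), and the intervals overlapped. Such intervals cover the sampling of cells only, and cells of 1 line at a stage are not independent samples.

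DHX58 encodes LGP2, a relative of RIG-I that lacks the signalling domain and modulates the other 2 helicases. The gene lies on chromosome 17, 42101411 to 42112714. It was the least often detected of the 8, in 42 cells. In the p53-/- line it had counts in 0 of 7 [N] cells, in 8 of 11 [P] cells, in 5 of 8 [B] cells, in 1 of 9 [S] cells and in 0 of 8 [R] cells. The count of 0 allows a share of cells with a count of up to 41.0% in [N] and 36.9% in [R] by the exact interval, under the same limit. In the p53+/+ line it had counts in 2 of 6, 1 of 6, 14 of 28, 9 of 21 and 2 of 11 cells of the same stages. The p53-/- line therefore had its highest share in [P] and the p53+/+ line in [B], at levels that did not exceed 16.4 CPM in any cell.

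TLR3, the endosomal receptor for double-stranded RNA (chromosome 4, 186069156 to 186088073), was detected in 10 of 43 p53-/- cells (23.3%, exact 95% interval 11.8 to 38.6) and in 51 of 72 p53+/+ cells (70.8%, 58.9 to 80.9). These intervals pool cells of all stages, and the mix of stages differed, with 28 of 72 p53+/+ cells in [B] against 8 of 43 p53-/- cells. They cover the sampling of cells only, and cells of the same line are not independent samples. The intervals are therefore no test of a difference between the lines. TLR3 signals through the adaptor TICAM1 and not through MAVS, and has been described as a p53-responsive gene in human cells. In the p53-/- line counts were present in 3 of 7 [N] cells, 3 of 11 [P] cells, 4 of 8 [B] cells, 0 of 9 [S] cells and 0 of 8 [R] cells. In the p53+/+ line they were present in 4 of 6, 5 of 6, 22 of 28, 13 of 21 and 7 of 11 cells of the same stages. The share was higher in the p53+/+ line at every stage. The summed level was higher in that line in [N], [P], [S] and [R], but not in [B], at 4.60 CPM against 5.69 CPM in the p53-/- line. A single cell held 77.1% of the TLR3 counts of p53-/- [B] cells. In the p53-/- line 3 counts, the floor used here, would be 0.00869 CPM of the [S] sum and 0.00726 CPM of the [R] sum. After each cell was thinned to 15435056 counts, with 12 shallower cells left out, the shares were 24.4% of 41 p53-/- cells and 74.2% of 62 p53+/+ cells. Among the p53+/+ stages the highest summed level was 9.90 CPM in [R], where the levels of the 11 cells were between 0 and 32.7 CPM.

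**Figure D2:**
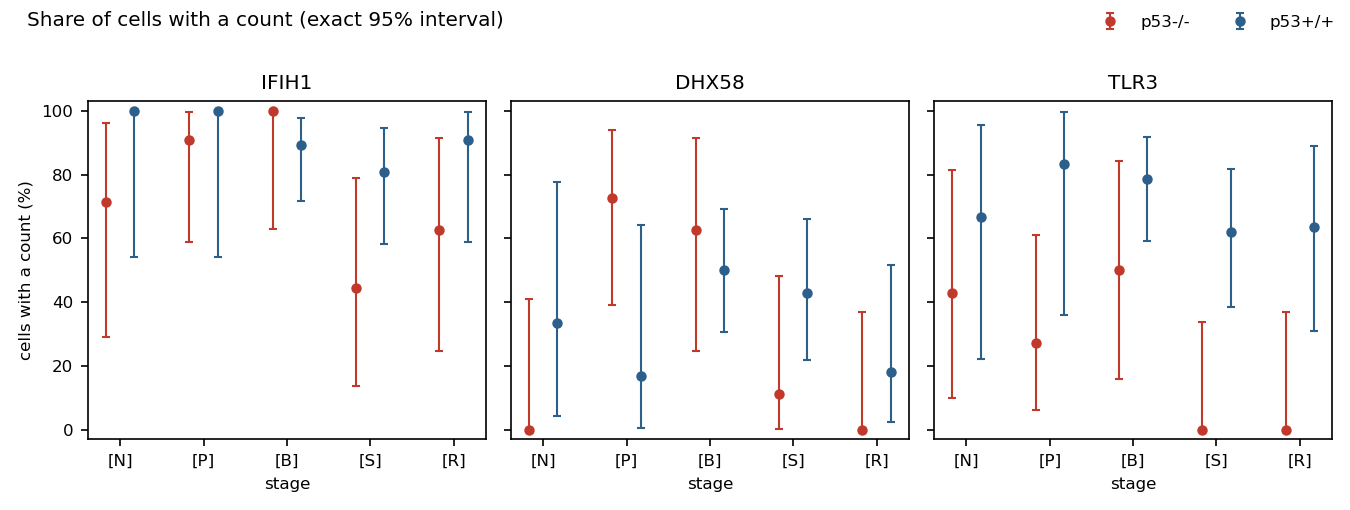
Percentage of cells with at least 1 count of IFIH1, DHX58 and TLR3 by stage, with p53-/- in red left of p53+/+ in blue and exact 95% intervals as bars. TLR3 was detected in a larger share of p53+/+ cells at every stage, and in 0 of 9 and 0 of 8 p53-/- cells of [S] and [R].

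TRIM25 is the ubiquitin ligase described as an activator of RIG-I (chromosome 17, 56887909 to 56914049), and was detected in every cell. It overlaps the microRNA gene MIR3614. In [N] its lowest, median and highest levels were 35.3, 54.7 and 72.1 CPM in p53-/- cells and 19.6, 48.1 and 69.98 CPM in p53+/+ cells. In [P] they were 10.1, 98.4 and 291 CPM in p53-/- cells and 67.8, 113.7 and 199 CPM in p53+/+ cells. Of the [P] cells, 8 of 11 p53-/- and 5 of 6 p53+/+ cells lay above all [N] cells of their line, and 1 of the 11 lay below them. Its summed levels in [B] were 61.5 and 74.4 CPM, in [S] 68.7 and 83.9 CPM, and in [R] 48.9 and 22.2 CPM, in p53-/- and p53+/+ cells.

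MAVS, the mitochondrial adaptor of both helicases (chromosome 20, 3846834 to 3876118), had no count in 2 cells. Its summed levels were 28.1 CPM in p53-/- and 26.8 CPM in p53+/+ [N] cells, and 49.1 and 30.6 CPM in [P], 41.9 and 39.7 CPM in [B], 61.6 and 47.0 CPM in [S], and 41.8 and 46.4 CPM in [R]. Both [S] sums were thus above both [N] sums. A single cell held 46.1% of the MAVS counts of p53-/- [S] cells.

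TBK1, the kinase that phosphorylates IRF3 (chromosome 12, 64452120 to 64502114), had lower summed levels in [P], [B] and [S] than in [N] in both lines, and no count in 4 cells. In [N] the lowest, median and highest levels were 31.2, 48.5 and 106.1 CPM in p53-/- cells and 62.4, 72.3 and 90.9 CPM in p53+/+ cells. In [B] they were 0.765, 37.7 and 60.2 CPM in p53-/- cells and 1.10, 30.3 and 151 CPM in p53+/+ cells. In the p53+/+ line, 24 of 28 [B] cells and 19 of 21 [S] cells lay below all 6 [N] cells, and in the p53-/- line 3 of 8 and 5 of 9 did. In [P] the lines differed, with a summed level of 30.6 CPM in p53-/- cells and 67.3 CPM in p53+/+ cells. The [R] sums were 97.2 and 99.5 CPM in the same lines, above the [N] sums of 70.1 and 78.05 CPM.

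IRF3, the transcription factor at the end of the chain (chromosome 19, 49659572 to 49665857), was detected in every cell. Its summed levels were 47.5 and 34.5 CPM in p53-/- and p53+/+ [N] cells, 32.4 and 30.9 CPM in [P], 56.5 and 48.6 CPM in [B], 54.2 and 39.4 CPM in [S], and 31.7 and 58.2 CPM in [R]. All 10 sums thus lay between 30.9 and 58.2 CPM. IRF3 overlaps BCL2L12 in RefSeq, and DDX58 overlaps 2 long non-coding RNAs. Whether the counting used strand was not given in the sources used here, so that reads of such neighbours may be included.

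**Figure D3:**
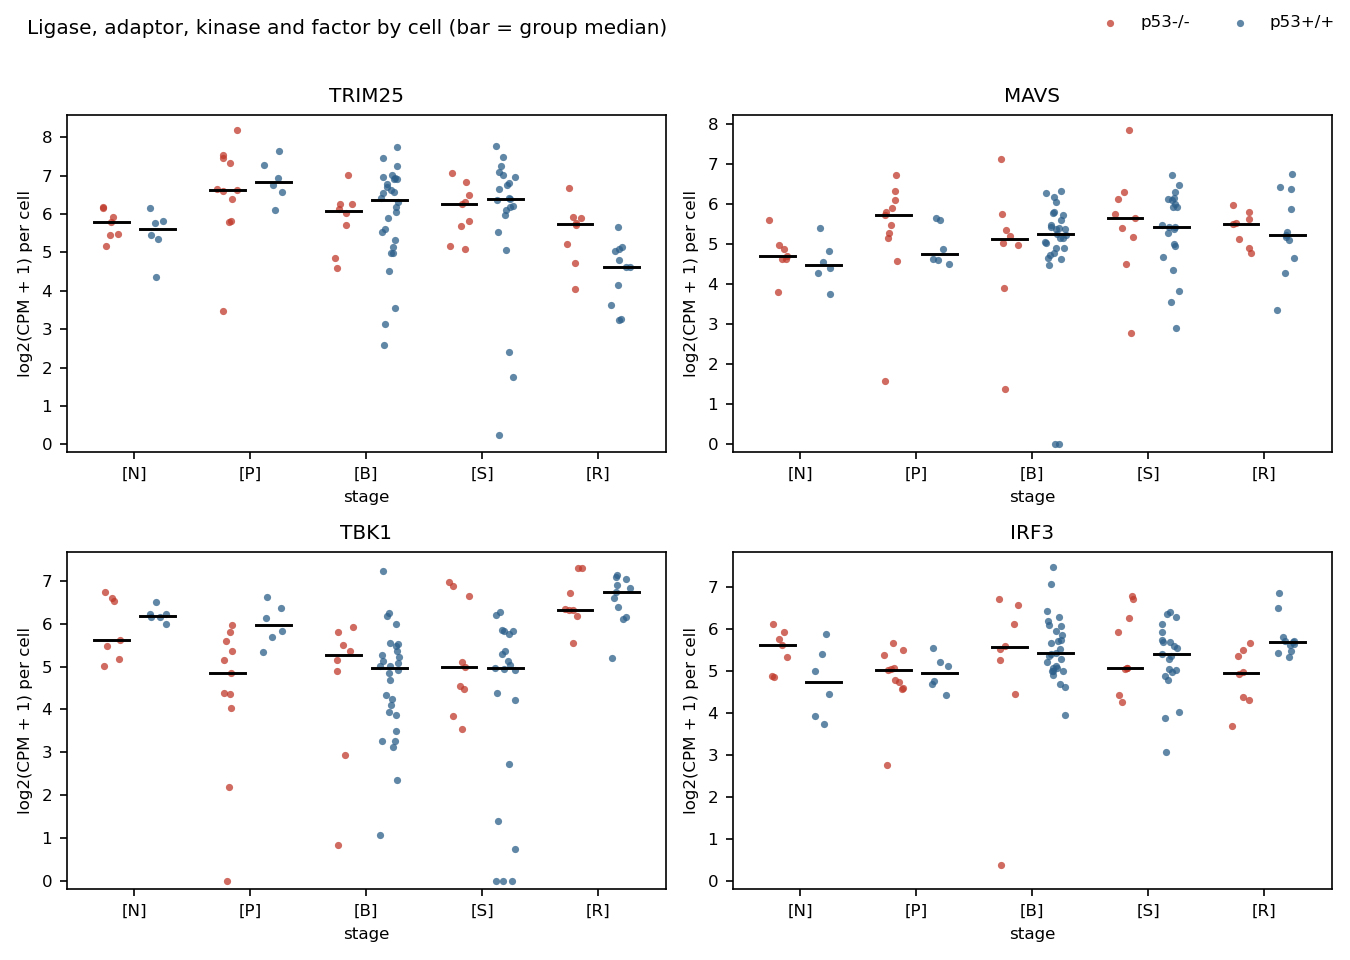
Level of TRIM25, MAVS, TBK1 and IRF3 in each cell, as log2(CPM + 1), by stage, with p53-/- cells in red left of p53+/+ cells in blue and a bar at each group's median. The TRIM25 medians were highest in [P] in both lines, and the TBK1 medians in [R].

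The test of each stage against [N] asks whether the sensors' RNA differed between irradiated and unirradiated cells on average over the 2 lines. It does not ask whether it differed in each line. Calls were made at an adjusted p under 0.05 from edgeR's quasi-likelihood test over 19894 genes. That test returns no standard error. The SE given here is an approximation, the size of the log2 fold change divided by the square root of the test's F statistic. In [P] versus [N], edgeR called 0 of the 8 members, and 0.0201% of all genes. DDX58 had a log2 fold change of 2.51 (SE 0.92, adjusted p = 0.354), IFIH1 2.20 (SE 0.91, adjusted p = 0.393) and TRIM25 1.03 (SE 0.38, adjusted p = 0.364). These were the 3 members with an unadjusted p under 0.05, a threshold that 11.9% of all genes passed. DESeq2 on the same sums called 1 member, DDX58 (adjusted p = 0.0391), and 4.26% of all genes. For the other members the log2 fold change was 2.76 (SE 2.70) for DHX58, 1.51 (SE 2.51) for TLR3, 0.39 (SE 0.30) for MAVS, -0.74 (SE 0.40) for TBK1 and -0.52 (SE 0.34) for IRF3. The median over the 8 was 1.27, compared with 0.15 over all genes. Within the 1 name prefix that held both [P] and [N] cells, the summed DDX58 level of [P] minus [N] was 0.804 on the log2 scale in the p53-/- line (3 and 2 cells) and 3.99 in the p53+/+ line (6 cells and 1 cell). Without the cell with the most DDX58 counts in each sum, the IFIH1 value was 1.43 (adjusted p = 0.501). What the prefix of a cell's name stands for is not given in the labels. No [B], [S] or [R] cell shared a prefix with an [N] cell, so that stage and prefix cannot be told apart in those comparisons with [N]. The [R] cells of each line had a prefix of their own, held by no other group. In [R], line and prefix therefore cannot be told apart either.

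In [B] versus [N], edgeR called 0 of the 8 members and 0.658% of all genes. The largest value was that of DDX58, at 3.43 (SE 0.95, adjusted p = 0.112), followed by IFIH1 at 2.43 (SE 0.92, adjusted p = 0.202). TBK1 was lower at -1.30 (SE 0.40, adjusted p = 0.138). These 3 had an unadjusted p under 0.05, as had 18.5% of all genes. DESeq2 called the same 3, with adjusted p of 0.000597, 0.0316 and 0.0319, and 11.4% of all genes. With the line as a block, since the sums of a line are paired across stages, edgeR called 677 of 19894 genes, among them DDX58 (log2 fold change 3.48, adjusted p = 0.04). Without the cell with the most DDX58 counts in each sum, the value was 2.66 (adjusted p = 0.103). The remaining values were 2.41 (SE 2.66) for DHX58, 2.25 (SE 2.57) for TLR3, 0.42 (SE 0.38) for TRIM25, 0.47 (SE 0.30) for MAVS and 0.25 (SE 0.34) for IRF3. The median over the 8 was 1.36, compared with 0.20 over all genes.

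In [S] versus [N], edgeR called 0 of the 8 members and 0.0704% of all genes. MAVS had 1.00 (SE 0.30, adjusted p = 0.266), DDX58 2.04 (SE 0.90, adjusted p = 0.368) and TBK1 -0.91 (SE 0.40, adjusted p = 0.364). An unadjusted p under 0.05 was reached by these 3 and by 13.3% of all genes. DESeq2 called 0 members and 5.02% of all genes. The other values were 1.61 (SE 0.89) for IFIH1, 2.53 (SE 2.68) for DHX58, 0.16 (SE 2.46) for TLR3, 0.71 (SE 0.38) for TRIM25 and 0.21 (SE 0.34) for IRF3. The IFIH1 value depended on the p53+/+ [S] sum, without which it was -0.45.

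In [R] versus [N], edgeR called 0 of the 8 members and 0% of all genes, with 0 members and 8.6% of all genes at an unadjusted p under 0.05. DESeq2 called 0 members and 2.06% of all genes. The values were 0.73 (SE 0.87) for DDX58, 1.18 (SE 0.88) for IFIH1, -0.23 (SE 2.54) for DHX58 and 2.17 (SE 2.56) for TLR3. With the line as a block the TLR3 value was 0.04, and without the p53+/+ [R] sum it was -11.78, the p53-/- [R] sum being 0. They were -0.59 (SE 0.38) for TRIM25, 0.53 (SE 0.30) for MAVS, 0.25 (SE 0.40) for TBK1 and -0.02 (SE 0.34) for IRF3. These 4 comparisons share the [N] sums.

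Budding cells were then set against the cells before budding, and daughter cells against budding cells. In [B] versus [P], edgeR and DESeq2 called 0 members, and 0% and 0.744% of all genes. IRF3 was the only member with an unadjusted p under 0.05 (0.77, SE 0.34, adjusted p = 0.946), as were 5.18% of all genes. The other values were 0.92 (SE 0.87) for DDX58, 0.23 (SE 0.87) for IFIH1, -0.34 (SE 2.52) for DHX58, 0.74 (SE 2.47) for TLR3, -0.61 (SE 0.38) for TRIM25, 0.08 (SE 0.30) for MAVS and -0.56 (SE 0.40) for TBK1. Without the p53-/- [B] sum the DDX58 value was -0.35. Within the 2 name prefixes that held p53-/- cells of both stages, 1 [B] cell against 4 [P] cells each, the DDX58 difference was -0.206 and -6.89 on the log2 scale, and that of IFIH1 1.04 and -0.964.

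In [S] versus [B], 0 members were called by edgeR (0% of all genes) and 0 by DESeq2 (0.272%). No member had an unadjusted p under 0.05, which 4.19% of all genes had. The values were -1.39 (SE 0.88) for DDX58, -0.82 (SE 0.88) for IFIH1, 0.12 (SE 2.52) for DHX58, -2.09 (SE 2.55) for TLR3, 0.29 (SE 0.38) for TRIM25, 0.53 (SE 0.30) for MAVS, 0.39 (SE 0.40) for TBK1 and -0.04 (SE 0.34) for IRF3. Cells of both stages and 1 line occurred in 11 pairs of name prefix and line, and DDX58 was higher in [S] in 4 of these 11.

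The lines were compared over all 5 stages with the stage in the fit. In p53-/- versus p53+/+, edgeR called 0 of the 8 members and 0.206% of all genes. DDX58 had 1.23 (SE 0.47, adjusted p = 0.281) and was the only member with an unadjusted p under 0.05, as had 13.9% of all genes. DESeq2 called DDX58 (1.23, adjusted p = 0.0266) and DHX58 (-4.27, adjusted p = 0.0180), and 8.55% of all genes. The summed DDX58 level was higher in the p53-/- line in [N], [P], [B] and [R] and lower in [S]. Without the highest cell of each sum the DDX58 value was 0.57 (adjusted p = 0.592). TLR3 had -3.16 (SE 2.03, adjusted p = 0.563) and DHX58 -3.89 (SE 2.69, adjusted p = 0.601), both with sums of 0 in the p53-/- line, where a fitted value depends on the prior count. The summed DHX58 level was higher in the p53-/- line in [P] (3.12 CPM, against 0.093 CPM in the p53+/+ line) and [B] (1.37 against 1.09 CPM), and lower in [N], [S] and [R]. Without the stage in the fit the DHX58 value was -0.10, and as the mean of log2(CPM + 1) per cell it was -0.04. With each cell given the same weight, as the mean of log2(CPM + 1), limma called 539 of 19894 genes, among them TLR3 (-1.19, adjusted p = 0.0387). The other values were -0.05 (SE 0.64) for IFIH1, 0.03 (SE 0.25) for TRIM25, 0.10 (SE 0.18) for MAVS, -0.12 (SE 0.25) for TBK1 and -0.04 (SE 0.21) for IRF3.

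**Figure D4:**
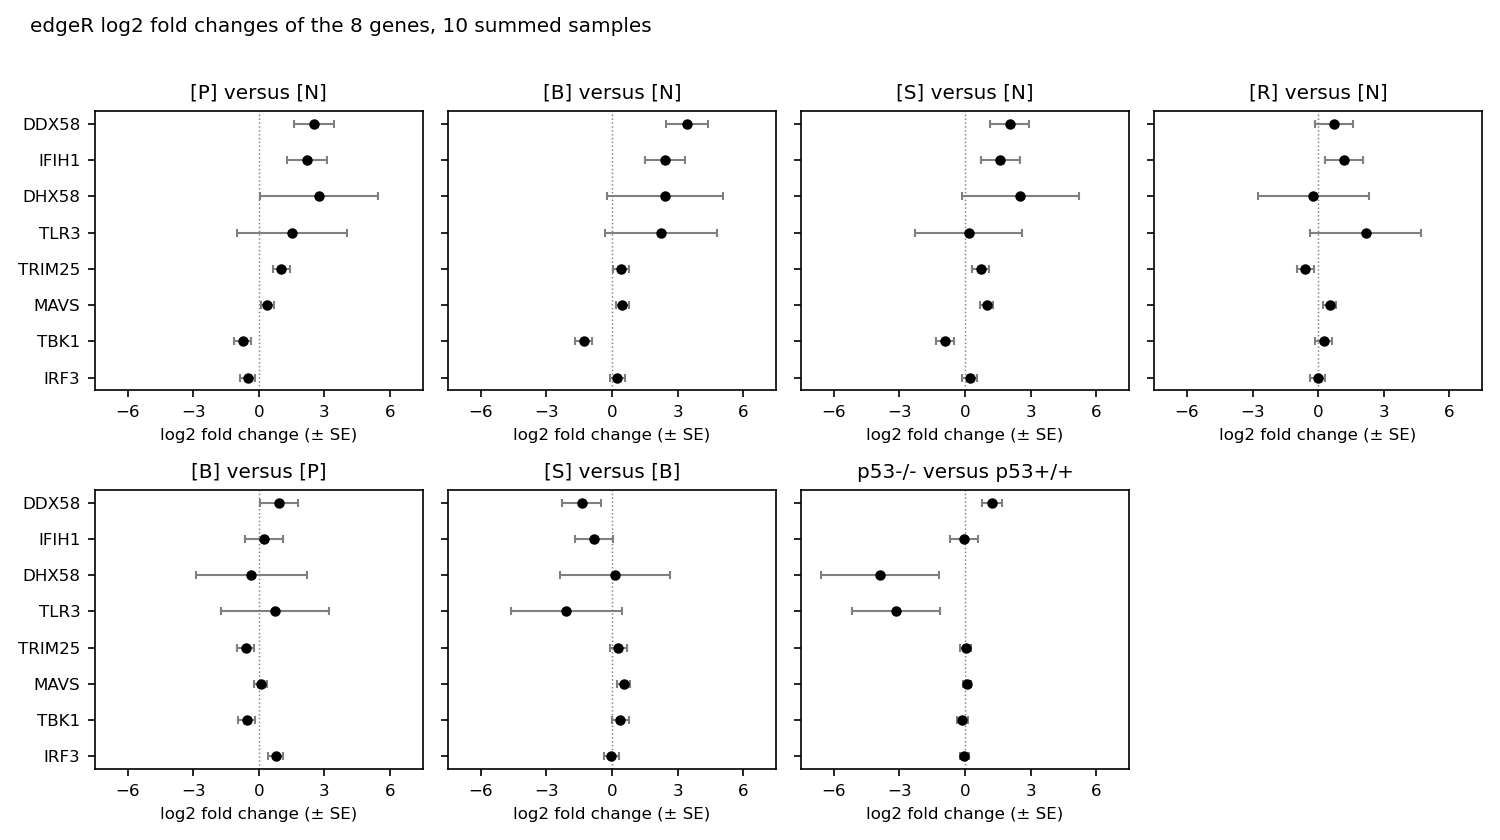
Log2 fold change of the 8 genes in the 7 comparisons, first-named group over the second, from edgeR on the 10 sums, with the SE approximated from the F statistic as bars. DDX58 had its largest value, 3.43, in [B] versus [N], and the bars of DHX58 and TLR3 are the widest in each panel.

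DDX58 and IFIH1 levels went together among cells. The Spearman correlation of their log2(CPM + 1) was 0.54 over all cells, 0.41 over the 43 p53-/- cells and 0.64 over the 72 p53+/+ cells. The cells share stages and lines, and DDX58 also correlated at 0.35 with the number of genes detected in a cell, so that these values are given as a description. The correlation of DDX58 was 0.41 with TRIM25, 0.36 with MAVS, 0.31 with DHX58 and 0.30 with TLR3, and -0.04 with TBK1. Of the 12 cells with the most DDX58, 4 were also among the 12 with the most IFIH1 and 3 among the 12 with the most TLR3. Of 16531 genes with counts in at least 30 cells, those most like DDX58 included IFI44 (0.64), OASL (0.62), SAMD9 (0.61) and HLA-C_1 (0.57). Those most like IFIH1 were HERC5 (0.57), DDX60 (0.56), DDX58 (0.54), PARP9 (0.53) and B2M_1 (0.52), and those most like TLR3 were CMBL (0.66), FAS (0.65), EHF (0.61), PDCD4 (0.60) and EIF4E3 (0.59). Names that end in _ and a number are separate entries of the table for a shared name.

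**Figure D5:**
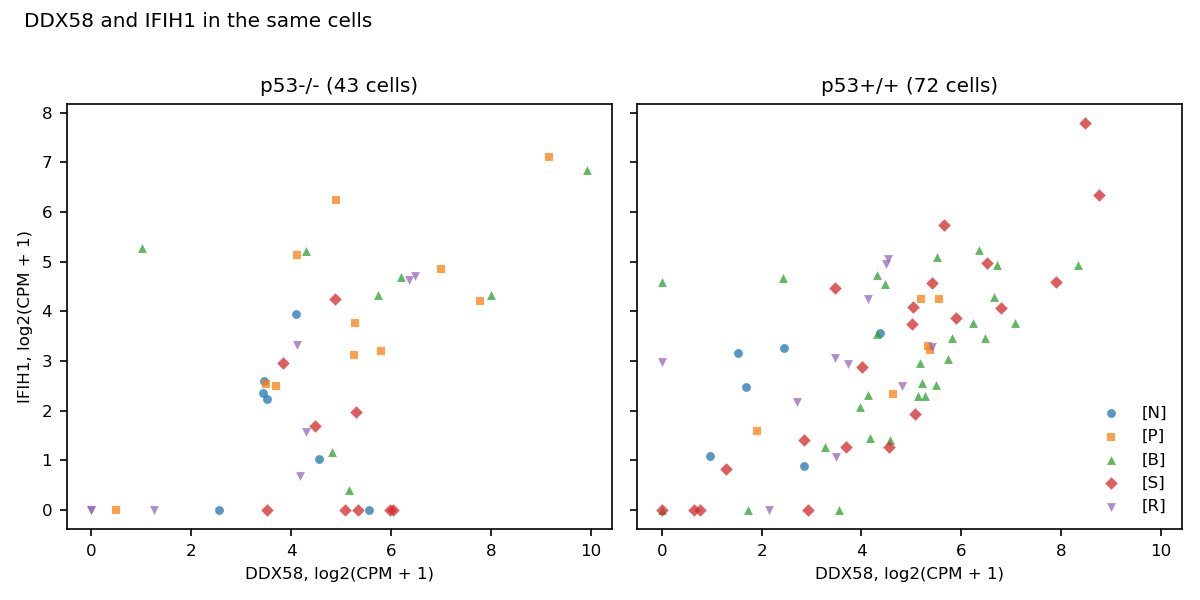
DDX58 against IFIH1 in the same cells, both as log2(CPM + 1), for 43 p53-/- cells (left) and 72 p53+/+ cells (right), with the stage as the symbol. The Spearman correlation was 0.41 in p53-/- cells and 0.64 in p53+/+ cells.

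In the 12 cells with the most DDX58, ISG15, which encodes an interferon-induced ubiquitin-like protein, was at 1196 to 20557 CPM. The [P] cells among them, all p53-/-, had 2128, 1196 and 1622 CPM, below the 2260 CPM of the p53-/- [P] sum. The p53-/- [B] cells among them had 20557 and 3278 CPM, against 7170 CPM in the p53-/- [B] sum. The p53+/+ [B] cells had 15160, 5274 and 11911 CPM, against 3390 CPM in the p53+/+ [B] sum. The highest in DDX58, a p53-/- [B] cell at 970 CPM, had 20557 CPM of ISG15 and counts of none of the interferons IFNB1, IFNL1, IFNL2 and IFNL3. The second, a p53-/- [P] cell at 571 CPM, had 5.76 CPM of IFNB1 and 2.10 CPM of IFNL1. A p53+/+ [S] cell with 357 CPM of DDX58 and 220 CPM of IFIH1 had 136 CPM of IFNL1, the highest level of that gene in any cell. IFNB1 had counts in 6 cells, of which 4 were p53-/- [P] cells, and in 0 of the 13 [N] cells. IFNL1 had counts in 15 cells and CCL5, a chemokine gene, in 17, none of them in [N] or [R].

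The rest of the pathway was taken from lists, with edgeR calling no gene of any list in the 7 comparisons. The lists too were chosen with earlier results of these data known. Counts for the lists are therefore of genes with an unadjusted p under 0.05, which 11.9% of all genes had in [P], 18.5% in [B] and 8.6% in [R] versus [N]. Of the 26 tested interferon-stimulated effectors, 15 had an unadjusted p under 0.05 with a higher level in [P] than in [N] and none with a lower level, and DESeq2 called 8, with 4.26% of all genes. Their median log2 fold change was 2.32, compared with 0.15 over all genes. In [B] versus [N], 15 were higher and 1 lower at that unadjusted p, DESeq2 called 13, with 11.4% of all genes, and the median was 3.18, compared with 0.20. ISG15 had 4.45 (SE 0.92, adjusted p = 0.0598) and OASL, an oligoadenylate synthetase-like gene, 6.99 (SE 1.83, adjusted p = 0.106) in [B] versus [N]. OAS3 had 2.05 (SE 0.44, adjusted p = 0.284) and PARP9 1.87 (SE 0.53, adjusted p = 0.290) in [P] versus [N]. In [R] versus [N] 1 of the 26 had an unadjusted p under 0.05. By sign alone 23 of the 26 were above 0 there, and the median was 0.98, compared with 0.02 over all genes.

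Among 18 tested genes of signalling downstream, 2 were higher and 1 lower in [P] than in [N] at an unadjusted p under 0.05 (11.9% of all genes), and 5 and 3 in [B] (18.5%). TICAM1, the TLR3 adaptor, had 2.62 (SE 0.59, adjusted p = 0.0752) in [B] versus [N], with 32.7 and 12.2 CPM in p53-/- and p53+/+ [B] sums, against 3.66 and 2.89 CPM in the [N] sums. CHUK had -1.43 (SE 0.36, adjusted p = 0.0924), TRAF2 -1.01 (SE 0.34, adjusted p = 0.166) and TANK, a TBK1-binding protein gene, -1.01 (SE 0.37, adjusted p = 0.191). Of 24 tested regulators of RIG-I and MDA5, 5 were higher and 3 lower in [P] than in [N] at that threshold (11.9% of all genes), and 5 and 5 in [B] (18.5%). DDX60 had 5.43 (SE 1.34, adjusted p = 0.284) and RNF125, a ligase that marks RIG-I for degradation, 1.70 (SE 0.47, adjusted p = 0.290) in [P] versus [N]. DDX3X had -1.58 (SE 0.34, adjusted p = 0.0657) and G3BP1 -1.17 (SE 0.31, adjusted p = 0.101) in [B] versus [N].

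Of 14 tested interferon receptor and ISGF3 genes, 1 was higher in [P] and 1 in [B] than in [N] at an unadjusted p under 0.05, and none was lower, a share below the 11.9% and 18.5% of all genes. IRF9 had 1.66 (SE 0.59, adjusted p = 0.181) and IRF1 1.00 (SE 0.60) in [B] versus [N], whereas STAT2 had 1.11 (SE 0.47) and SOCS1 -1.01 (SE 0.56) in [P] versus [N]. Of 15 listed interferons and chemokines, 5 could be tested. CCL5 had no count in the [N] sums and 1.75 and 1.51 CPM in the p53-/- and p53+/+ [B] sums, and IFNL1 had 4.05 and 0.203 CPM in the [P] sums. CXCL11 had 0.811 and 1.04 CPM in the [B] sums, and IFNE 1.12 and 0.145 CPM in the [P] sums against 1 count in [N]. Of 13 other nucleic acid sensors 6 could be tested, of which 1 in [P] and 3 in [B] had a higher level than in [N] at an unadjusted p under 0.05 (11.9% and 18.5% of all genes). TMEM173, the STING gene, had 2.56 (SE 0.82, adjusted p = 0.149) in [B] versus [N]. NLRP1 had 6.55 and 1.80 CPM in the p53-/- and p53+/+ [B] sums, against 0.448 and 0 CPM in the [N] sums. In the same comparison EIF2AK2, the PKR gene, had -0.65 (SE 0.29). TLR9, the gene counted in [P] and 1 of those counted in [B], had no count in the [N] sums. Its levels were 0.256 and 0.196 CPM in the p53-/- and p53+/+ [P] sums, and 0.387 and 0.0258 CPM in the [B] sums. TLR9 could pass the filter only through stages other than [N], so that its direction against [N] was fixed beforehand.

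A further list held genes that act on RNA, DNA or chromatin, not all of them on double-stranded RNA. Of its 14 tested genes, 1 was lower in [P] and 3 were lower in [B] than in [N] at an unadjusted p under 0.05. None was higher, and these shares were not far from the 11.9% and 18.5% of all genes. PNPT1, a mitochondrial RNA-degrading enzyme, had -1.57 (SE 0.36, adjusted p = 0.0759) and RNASEH2A -1.08 (SE 0.32, adjusted p = 0.129) in [B] versus [N]. DNMT1 had -0.93 (SE 0.36) and SUPV3L1, the helicase that works with PNPT1, -0.66 (SE 0.37). The median of this list in [B] versus [N] was -0.52, compared with 0.20 over all genes. Of 10 tested genes of TLR3 trafficking, 1 was higher and 1 lower in [P] than in [N] at an unadjusted p under 0.05 (11.9% of all genes), and 4 were higher and 1 lower in [B] (18.5%). By sign alone, 6 of the 10 were above 0 in [P] and 7 in [B]. SRC had 1.12 (SE 0.45) and LGMN, a lysosomal protease gene, 0.92 (SE 0.38) in [B] versus [N], and UNC93B1, the chaperone that carries TLR3 to endosomes, -0.98 (SE 0.41) in [P] versus [N].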

How the data were processed

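Single cells were amplified by a full-length protocol and sequenced one by one. By the study's methods, fastp served for trimming and HISAT2 2.0 for alignment (GRCh38). Which tool made the counts is not given in the sources used here. The deposited values are raw counts per gene and cell, made by the authors and not normalised. FPKM values were not used here.

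Counts were summed per stage and line. Genes were kept with filterByExpr (minimum count 10) and with a count in at least 12 cells, leaving 19894. The 10 sums were fitted with edgeR 4.0.16 (TMM, robust quasi-likelihood) in R 4.3.3, with 1 mean per stage, and with the stage added for p53. P-values were adjusted over all genes tested (Benjamini-Hochberg). DESeq2 1.42.0 and limma 3.58.1 served as alternatives, beside scaling by total counts, no filter, thinned cells, omission of sums, of the highest DDX58 cells or of 4 cells of name prefix 1219. Only the edgeR fit with 1 mean per stage was also run on simulated data, for [P] and [R] versus [N]. There edgeR made no call when all genes were given a single dispersion, even at the largest fold change put in, and found most of the larger ones, with some false calls, when each gene had its own. Hence the absence of a call does not show the absence of a difference. Lines follow the labels, whose tally of cells per line differs slightly from the one in the study's text. Sums of the same line are paired by design. The difference between lines correlated between stages at 0.04 to 0.375, and 9 of 10 pairs were above 0.1. The members and lists were chosen with earlier results of these data known. The genes named are the 8 members in every comparison, the 4 genes of each list with the smallest p in [P] or [B] versus [N], and the 5 genes most like DDX58, IFIH1 and TLR3. Of these last, 1 entry is not reported here. Depth was 4056329 to 100173192 counts per cell. Python 3.11.15 was used for figures and levels.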

Additional observations from a re-analysis of the deposited data

Results flagged for a closer look

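Single cells that stood apart from the others of their group were looked for in 44 groups of 4 to 10 cells, by the gap to the nearest cell over the group's range, and 4 were found. Chance flags about 1 in 20 groups. On the log2(CPM + 1) scale, DDX58 was at 1.91 in p53+/+ [P] cell 5, with the other 5 cells between 4.62 and 5.55. DHX58 was at 1.02 in p53+/+ [P] cell 1 and at 0.892 in p53-/- [S] cell 4, with all other cells of these groups at 0. Any group in which a single cell has counts is flagged, whatever the value, so that the chance rate does not apply to these 2. IRF3 was at 0.378 in p53-/- [B] cell 3, with the others between 4.45 and 6.73.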

How the results depend on the processing

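Each of the 56 log2 fold changes (8 genes in 7 comparisons) was recomputed under the alternatives, 720 values in all. For 34 of the 56 the direction held in every alternative, and for 22 it did not (62 values). None of the 8 genes changed direction in [B] versus [N], and only DHX58 did in [P] versus [N]. The number of the 8 members called by an adjusted p under 0.05, 0 in all 7 comparisons, was 1 with DESeq2 and 2 with no filter in [P] versus [N] (799 of 18736 and 407 of 33896 genes called in all). It was 1 with the line as a block, 3 with DESeq2 and 3 with no filter in [B] versus [N] (677 of 19894, 2134 of 18736 and 1276 of 33896), 1 with no filter in [S] versus [N] (524 of 33896), and 2 with DESeq2 and 1 with the mean log2 level per cell in p53-/- versus p53+/+ (1634 of 19122 and 539 of 19894). Leaving out a sum gave 0 members called throughout.

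With the line as a block, the value became -1.94 for TLR3 in [S] versus [N] and -2.31 for DHX58 in [S] versus [B], and with no block in p53-/- versus p53+/+ it became 0.40 for IFIH1 and -0.13 for TRIM25. Beside DDX58 in [B] versus [N], the block changed no call of a member. It moved the number of all genes called in [B] versus [N] to 677, against 131 without it. The numbers with and without the block were 5 and 4 in [P] versus [N], 31 and 14 in [S] versus [N], and 6 and 0 in [B] versus [P]. With no block in p53-/- versus p53+/+, 1 gene was called, against 41. With mean log2 levels per cell, the values were -0.31 for TLR3 in [S] versus [N], 0.21 for IRF3 in [R] versus [N], 0.02 for DHX58 and -0.26 for MAVS in [B] versus [P], and -0.24 for DHX58 and 0.08 for IRF3 in [S] versus [B]. When sums were scaled by total counts alone, which put the median of all genes at 0.30 in [P], 0.31 in [B] and 0.18 in [R] versus [N] (0.15, 0.20 and 0.02 with TMM), the values were 0.13 for IRF3 in [R] versus [N], -0.10 for DHX58 in [S] versus [B], and 0.05 for IFIH1 and 0.07 for IRF3 in p53-/- versus p53+/+. With no filter they were 0.01 for IRF3 in [R] versus [N] and -0.02 for TRIM25 in p53-/- versus p53+/+. With thinned cells they were 0.03 for IRF3 in [R] versus [N], -0.07 for DHX58 in [S] versus [B], and 0.07 for IFIH1 and -0.08 for TRIM25 in p53-/- versus p53+/+. Without the cell with the most DDX58 in each sum they were 0.55 for DHX58 in [R] versus [N], -0.11 for DHX58 in [S] versus [B], and -0.01 for TRIM25 and -0.05 for MAVS in p53-/- versus p53+/+. The cause was not tested.

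Leaving out each sum in turn gave -1.29 to 12.42 for DHX58 in [P] versus [N]. In [S] versus [N] it gave -0.45 to 2.42 for IFIH1, -1.30 to 12.22 for DHX58 and -11.71 to 1.16 for TLR3. In [R] versus [N] it gave -9.55 to 9.46 for DHX58, -11.78 to 3.17 for TLR3 and -0.54 to 0.37 for IRF3. In [B] versus [P] it gave -0.35 to 2.28 for DDX58, -0.67 to 1.51 for IFIH1, -1.30 to 3.74 for DHX58, -0.21 to 0.45 for MAVS and -1.01 to 0.14 for TBK1. In [S] versus [B] it gave -2.89 to 0.08 for IFIH1, -3.72 to 1.06 for DHX58, -0.01 to 0.55 for TRIM25, -0.06 to 0.68 for TBK1 and -0.19 to 0.04 for IRF3. In p53-/- versus p53+/+ it gave -0.61 to 0.58 for IFIH1, -0.23 to 0.17 for TRIM25, -0.05 to 0.17 for MAVS, -0.36 to 0.13 for TBK1 and -0.16 to 0.17 for IRF3. The lone sum that is left is assumed to vary like the other stages. Values beyond 9 in size come from sums with no count. For DDX58 the range was 1.23 to 4.01 in [P] and 2.16 to 4.92 in [B] versus [N].

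A stage has 2 sums, which limits every test. DDX58 counts of 1 cell made up most of the p53-/- [P] and [B] sums. DHX58 and TLR3 had no count in some p53-/- sums, although the p53-/- [R] cells had 42140319 to 65271185 counts each. Thinning left their shares of cells with a count at 36.9% (DHX58, 36.5% before) and 54.4% (TLR3, 53.04% before).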
